A study of Mus musculus with 12 samples.

Results

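The comparison described here sets the medial prefrontal cortex of unstressed Cav3.1 knockout (KO) mice against that of unstressed wild-type (WT) mice. It takes 6 of the 12 RNA-seq libraries of the study, chosen by label: 3 KO libraries and 3 WT libraries whose treatment is given as none. All mice were female, 8 to 12 weeks old and on the C57BL/6J background according to the labels. The KO line came from the RIKEN BioResource Center and the WT mice were bought from CLEA Japan, so the 2 genotypes came from different colonies. Genotype and colony therefore cannot be told apart in any result below. The other 6 libraries come from KO and WT mice stressed on 5 days, each day with either a forced swim or a tail suspension test. They share no library with the unstressed groups, and their KO against WT values are given for part of the genes as a second reading. All 12 libraries were fitted together with a shared estimate of spread, so the p-values of both readings are not independent. The labels do not say whether each library is a separate animal, so the p-values measure the spread between libraries.

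Cav3.1, encoded by Cacna1g, is the pore-forming subunit of a low-voltage-activated (T-type) calcium channel. T-type channels open near the resting potential and carry the calcium current behind rebound burst firing, best known in thalamic relay neurons and also present in cortical neurons. The family has 3 pores, Cacna1g, Cacna1h (Cav3.2) and Cacna1i (Cav3.3), which are distinct from the L-, P/Q-, N- and R-type pores that need stronger depolarisation.

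Total estimated counts were 27020289 to 31082240 in the WT libraries and 20892789 to 26252377 in the KO libraries. Cortical markers were present in all 6: Slc17a7, the vesicular glutamate transporter of cortical excitatory neurons, was at 1206, 1384 and 1852 CPM (counts scaled to the same library total) in WT libraries 1 to 3 and at 1740, 1820 and 2066 CPM in KO libraries 1 to 3. WT libraries 1 and 2 stood apart from the other 4. Cdhr1, which encodes a mitral cell cadherin in the olfactory bulb, was at 423 and 427 CPM in them, at 48.9 CPM in WT library 3 and at 59.5, 23.9 and 16.0 CPM in the KO libraries. The mean level of 11 olfactory bulb markers was 5.70 and 5.85 log2 CPM in WT libraries 1 and 2, 2.90 in WT library 3, and 2.77, 1.46 and 0.70 in the KO libraries. The mean level of 26 meningeal and fibroblast markers followed the same order of groups, at 4.14, 4.42 and 3.14 log2 CPM in WT and 2.61, 2.82 and 2.00 log2 CPM in KO. WT library 3 thus lay above the 3 KO libraries on both lists. On the first it was close to KO library 1 only (2.90 beside 2.77) and well above KO libraries 2 and 3 (1.46 and 0.70). It is therefore not a reference matched to the KO libraries for these markers. Among the other 6 libraries, stressed KO library 1 stood apart: 19 striatal markers had a mean of 5.86 log2 CPM in it and 3.87 to 4.25 in the other 5, and the myelin list was at 5.80 log2 CPM in it beside 4.83 and 4.78 in the other stressed KO libraries. In bulk tissue, fewer cells of a type and less RNA per cell cannot be told apart.

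Each finding is therefore given with 2 readings against WT library 3. A gene held against WT library 3 where the fold change kept its sign and that library lay outside the range of the 3 KO libraries on the same side. It passed against WT library 3 where, in a fit with WT libraries 1 and 2 left out, its adjusted p stayed under 0.05. That fit has no spread of its own for the lone WT library, which is assumed to vary like the other groups.

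**Figure D1:**
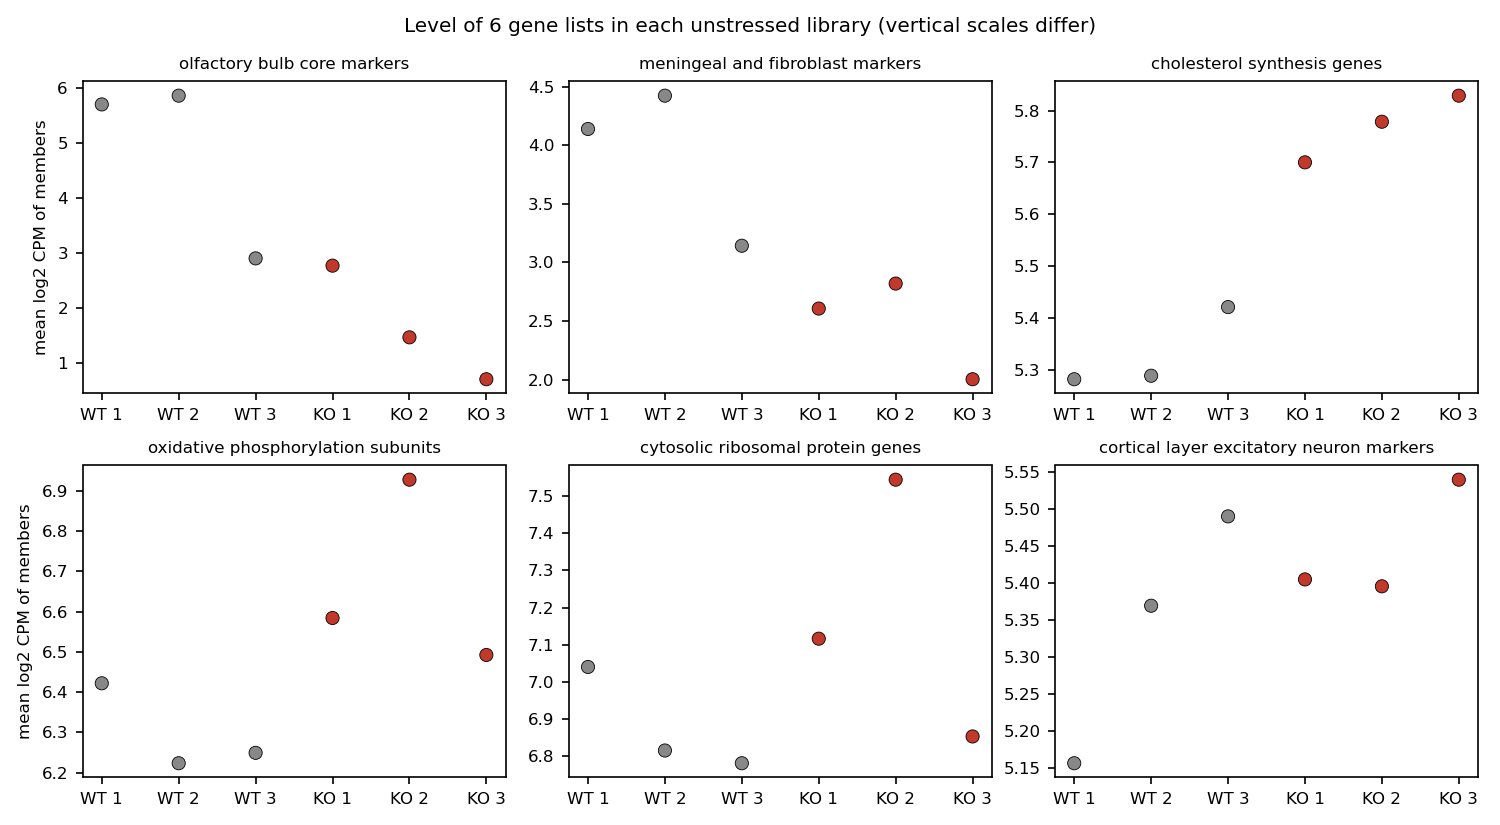
Mean log2 CPM of the members of 6 gene lists (vertical axes, scales differ) in each unstressed library (horizontal axis; grey points WT, red points KO). WT libraries 1 and 2 have the highest olfactory bulb and meningeal levels, and KO library 2 has the highest ribosomal protein level.

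Of 15199 genes tested, 3529 (23.2%) differed between unstressed KO and WT at an adjusted p under 0.05 by edgeR's quasi-likelihood test. Of these, 1697 (11.2% of the genes tested) were higher and 1832 (12.1%) lower in KO. Of the 3529 genes, 3212 (91.0%) held against WT library 3, 1655 of them higher and 1557 lower in KO. Over all genes tested, 53.9% had WT library 3 on the side of the fold change. WT library 3 and the 3 KO libraries also entered the comparison that picked the 3529 genes. The higher share among them is therefore partly set by that choice, and holding is the usual outcome for a gene that passed, in any list below. Against WT library 3 alone, 18 genes (0.116%) passed, 5 higher (0.0323%) and 13 lower (0.084%). All 18 were among the 3529. The 3 KO libraries did not overlap the 3 WT libraries for 5547 of the genes tested (36.5%). The number of genes also rested on other libraries: it was 1542 without WT library 1, 234 without WT library 2, 5729 without WT library 3, 988 without KO library 2 and 1922 without KO library 3. With WT library 1 or WT library 2 as the only unstressed WT library it was 3354 or 3406, beside the 18 with WT library 3. With only the 6 unstressed libraries in the fit it was 18, 7 higher and 11 lower. This set differs from the one against WT library 3. The 3529 thus rest on a spread shared with the stressed libraries. Chi-square per degree of freedom was 71.2 and 47.9 between WT library 3 and WT libraries 1 and 2, and 13.9 between the latter. It was 12.6 to 25.6 among unstressed KO libraries and at most 17.1 within the stressed groups. The shared spread may therefore be too small for the unstressed WT libraries.

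The size of the differences moved in the same way as the number of genes. The median absolute log2 fold change of the 3529 genes was 0.48 with 3 WT libraries, 0.31 against WT library 3 and 0.12 in the stressed libraries, with or without stressed KO library 1. The change was smaller against WT library 3 for 2891 of them (81.9%). Of 602 genes that passed with at least a 2-fold difference, 498 were lower and 104 higher in KO, and 145 were still at least 2-fold apart against WT library 3. In the scatter of fold changes, the olfactory bulb markers lie far from the diagonal. The 18 genes were picked for passing on both axes, so their place near it is partly set by that choice. Their distance from it varied, with Tmem254b at -1.78 and -1.79 and Otof at -0.93 and -1.37.

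**Figure D2:**
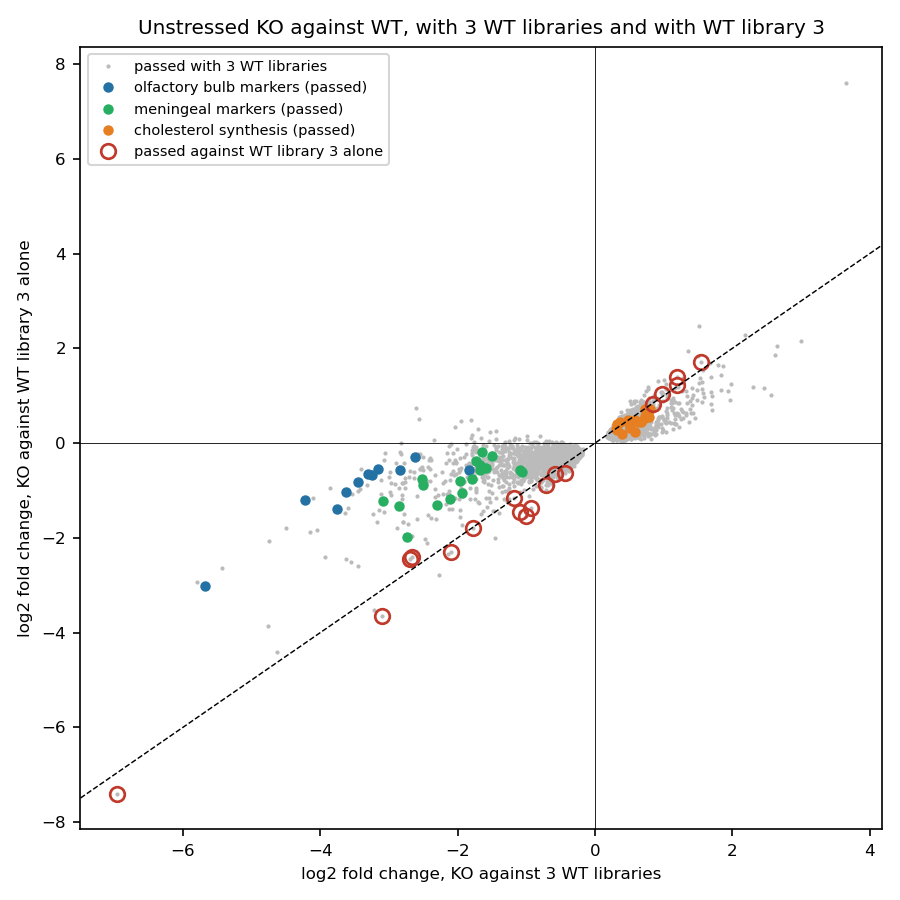
Log2 fold change of KO against 3 WT libraries (horizontal axis) and against WT library 3 alone (vertical axis) for the 3529 genes that passed with 3 WT libraries; the dashed line marks equal values. Rings mark the 18 genes that passed against WT library 3, and the olfactory bulb markers (blue) are nearer to 0 on the vertical axis than on the horizontal one.

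Cacna1g, the targeted gene, was at 133, 144 and 135 CPM in the WT libraries and at 65.1, 54.6 and 61.7 CPM in the KO libraries. The groups did not overlap, and WT library 3 lay within the range of the other 2 WT libraries. The KO mean was 44.0% of the WT mean, a log2 fold change of -1.18 ± 0.09 (SE, adjusted p = 9.97e-05). It held and passed against WT library 3, at -1.16 ± 0.12 (adjusted p = 0.00355). In the stressed libraries the log2 fold change was -0.93 (adjusted p = 0.000519; -0.91 without stressed KO library 1), with 109 to 128 CPM in WT and 57.6 to 66.0 CPM in KO. Counts are per gene, so they do not show which exons the remaining KO reads cover. The gene lies at chr11:94408391-94474198 on the minus strand of GRCm38, and no other annotated gene overlaps it.

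The other 2 T-type pores were also lower in unstressed KO. Cacna1h was at 114, 106 and 106 CPM in WT and at 77.4, 69.4 and 63.4 CPM in KO, a log2 fold change of -0.63 ± 0.14 (adjusted p = 0.0136). The WT libraries agreed closely and the groups did not overlap. Cacna1i was at 194, 204 and 160 CPM in WT and at 131, 117 and 128 CPM in KO, a log2 fold change of -0.57 ± 0.14 (adjusted p = 0.0181). Both held against WT library 3, at -0.59 and -0.35, and neither passed there (adjusted p = 0.228 and 0.381). After stress the values were 0.01 for Cacna1h and -0.41 for Cacna1i, or -0.04 and -0.26 without stressed KO library 1, and neither passed.

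Among the high-voltage-activated pores, 3 of 6 tested fell and none rose (50.0% passed, beside 23.2% of all genes). Cacna1c (Cav1.2, L-type) went from 145, 126 and 107 CPM in WT to 82.7, 77.5 and 88.0 CPM in KO, a log2 fold change of -0.61 (adjusted p = 0.0138). Cacna1d (Cav1.3, L-type) went from 101, 94.0 and 66.9 CPM to 64.3, 52.2 and 59.9 CPM, at -0.57 (adjusted p = 0.0167). Both held against WT library 3 without passing, at -0.37 and -0.19, and for Cacna1d the distance from WT library 3 to the nearest KO library was small. Cacna1s, the skeletal muscle L-type pore, was at 5.78 and 5.18 CPM in WT libraries 1 and 2, at 0.927 CPM in WT library 3 and at 0.448 to 1.64 CPM in KO. Its fall did not hold against WT library 3. The P/Q-, N- and R-type pores did not pass, with log2 fold changes from -0.09 to 0.35.

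Of 14 auxiliary calcium channel subunits tested, 3 fell and none rose (21.4% passed, a share near the 23.2% of all genes). Cacng4 (-0.58) held against WT library 3, while Cacng7 (-0.46) and Cacng5 (-2.55) did not. Cacng5 was at 139 and 113 CPM in WT libraries 1 and 2, 22.6 CPM in WT library 3 and 8.97 to 25.2 CPM in KO, the order of the olfactory bulb markers. None of the α2δ or β subunits passed.

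The genes within 10 Mb of Cacna1g were read because a targeted allele can carry flanking chromosome from the strain in which it was made. Of 274 genes tested there, 71 (25.9%) passed with 3 WT libraries, 35 higher and 36 lower, beside 23.3% of all genes with a position. Within 1 Mb, 11 of 28 genes tested passed (39.3%), 5 higher and 6 lower. Only Cacna1g passed against WT library 3, in the wider and in the narrower window. Its 5 nearest tested neighbours did not pass, with log2 fold changes from -0.38 to 0.39. Luc7l3, an RNA-binding splicing factor gene 0.136 Mb away, was at 192, 189 and 167 CPM in WT and 149, 117 and 105 CPM in KO, a fall of -0.56 (adjusted p = 0.0125). It held against WT library 3 at -0.43 (adjusted p = 0.256), and the stressed value was 0.22.

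**Figure D3:**
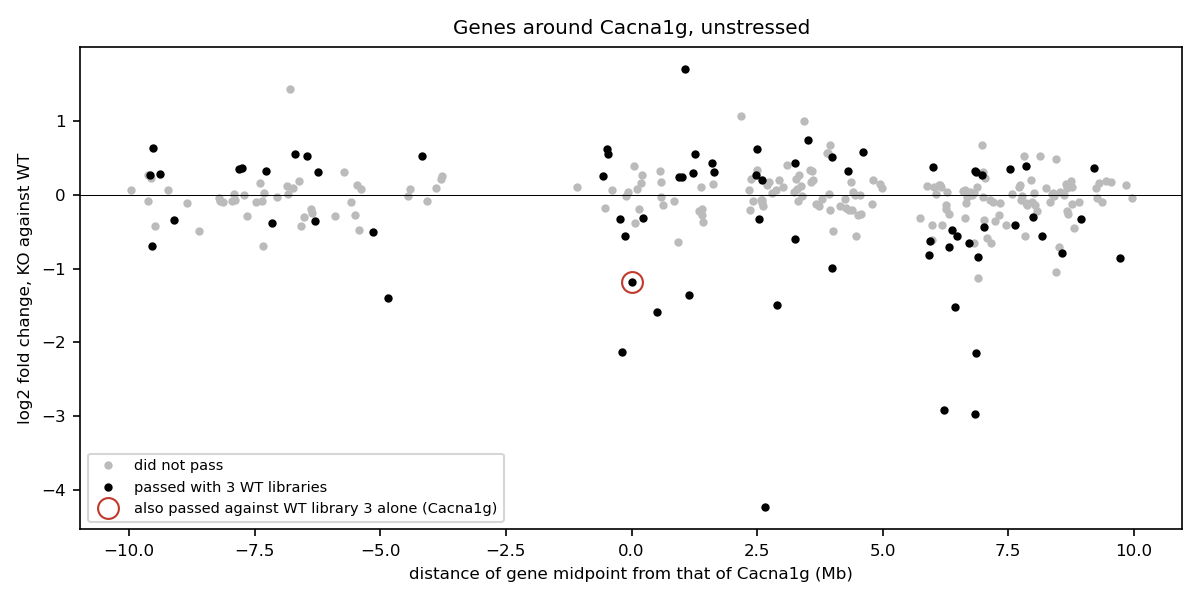
Log2 fold change of unstressed KO against WT (vertical axis) by distance of each tested gene from Cacna1g (horizontal axis, Mb). Black points passed with 3 WT libraries, and the ring marks Cacna1g at -1.18, the only gene within 10 Mb that also passed against WT library 3.

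Gabra2, Wdfy1 and Nnt rose and passed against WT library 3. Gabra2, the α2 subunit of the GABA-A receptor, lies at chr5:70957597-71095849 (GRCm38, minus strand) and was at 45.9, 46.1 and 44.4 CPM in WT and at 109, 101 and 101 CPM in KO. The WT libraries lay close together and the KO libraries were 2.28 times higher on average (log2 fold change 1.19 ± 0.10, adjusted p = 0.000125), or 2.33 times WT library 3. After stress it was at 31.3 to 41.7 CPM in WT and 80.6 to 92.9 CPM in KO, a log2 fold change of 1.26 (adjusted p = 7.9e-05).

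Wdfy1, a FYVE-domain adaptor of endosomal Toll-like receptor signalling, was at 25.1, 25.7 and 21.1 CPM in WT and at 69.4, 73.4 and 66.5 CPM in KO. The log2 fold change was 1.54 ± 0.09 with 3 WT libraries, 1.72 against WT library 3 and 1.90 in the stressed libraries. The gene lies at chr1:79702262-79776143 on the minus strand and overlaps Mrpl44 on the other. Nnt, the mitochondrial enzyme that makes NADPH from NADH, was at 15.7, 17.8 and 15.7 CPM in WT and at 31.5, 34.6 and 31.0 CPM in KO. Its log2 fold change was 0.98 ± 0.08, and 1.04 against WT library 3 and 0.83 in the stressed libraries. As background, the C57BL/6J line is known for a deletion in Nnt and for a small intronic deletion that lowers Gabra2, and transcript levels of Nnt and Wdfy1 are known to differ among C57BL/6 substrains. The labels give C57BL/6J for both colonies, and no genotype at these loci was analysed here.

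Of 7 genes tested from a list known to differ between C57BL/6 substrains, Nnt and Wdfy1 rose, Ide (-0.19) fell and the other 4 did not pass. The share that passed was 42.9%, beside 23.2% of all genes. Ide, the insulin-degrading enzyme, held against WT library 3 without passing (adjusted p = 0.481). Cyfip2, a regulator of actin at synapses whose coding sequence differs among substrains, was at 815, 977 and 1263 CPM in WT and at 1140, 1167 and 1373 CPM in KO (adjusted p = 0.173).

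The remaining genes that passed against WT library 3 were Mtg1, Cars, Prrt1, Ehd1 and Otof, which have transcripts of their own, and 9 whose reads were split among genes. Mtg1 (chr7:140137564-140150786), a GTPase of mitochondrial ribosome assembly, was at 12.9, 12.8 and 13.01 CPM in WT and at 22.2, 23.7 and 23.5 CPM in KO (0.84 ± 0.08). Cars (chr7:143557230-143600090), the cytosolic cysteinyl-tRNA synthetase, was at 43.0, 43.4 and 46.7 CPM in WT and at 29.6, 27.5 and 31.6 CPM in KO (-0.59 ± 0.07). In each the 3 libraries of a group lay close together, and both also passed in the stressed libraries, at 0.56 and -0.49. Mtg1 overlaps Sprn on the opposite strand, and whether reads were counted by strand is not given in the sources used here.

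Prrt1, which encodes an AMPA receptor-associated membrane protein, was at 43.6, 52.2 and 57.8 CPM in WT and at 31.3, 30.0 and 32.7 CPM in KO (-0.71 ± 0.11). Ehd1, an ATPase of endocytic recycling, was at 48.0, 46.2 and 57.6 CPM in WT and at 35.1, 38.9 and 38.2 CPM in KO (-0.44 ± 0.08). For both, WT library 3 was the highest library, so the fall was larger against it, at -0.88 and -0.62, and neither passed in the stressed libraries (-0.27 and -0.19). Otof, the calcium sensor otoferlin, was at 19.8, 26.6 and 38.3 CPM in WT and at 17.0, 13.3 and 13.9 CPM in KO (-0.93 ± 0.20, adjusted p = 0.0135). WT library 3 was again the highest, at -1.37, while stressed WT libraries were at 13.5 to 16.8 CPM and stressed KO libraries at 15.5 to 19.8 CPM. Prrt1, Ehd1, Otof, Cars and Srp54b did not pass with the olfactory bulb level as a covariate (adjusted p = 0.0745, 0.113, 0.184, 0.0662 and 0.164), and the other 13 of the 18 did. Over all genes, 14 (0.0921%) passed in that fit.

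**Figure D4:**
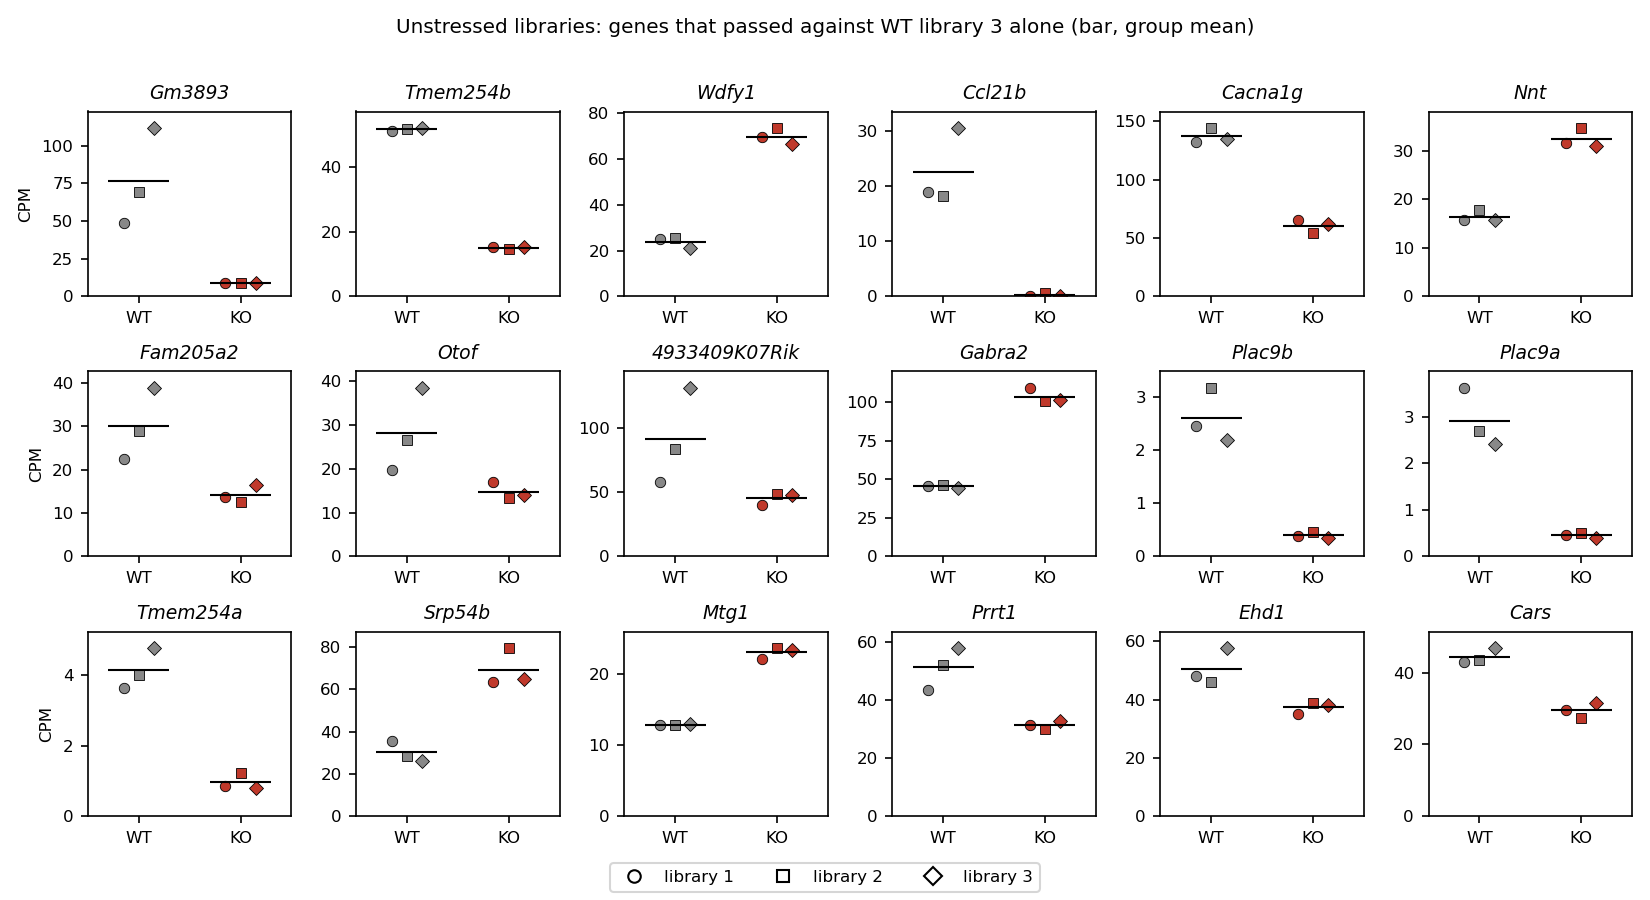
CPM (vertical axes, from 0) of the 18 genes that passed against WT library 3, by group, with each library as a point and the group mean as a bar. KO libraries lie apart from all 3 WT libraries in every panel, while WT library 3 is the highest WT library for Otof, Prrt1 and Ehd1, among others.

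These 9 genes had non-whole estimated counts in at least 6 of the 12 libraries, as arise where reads match near-identical copies. Their single-gene values are therefore uncertain. Tmem254b, a transmembrane protein gene at chr14:26203369-26207041, was at 51.2, 51.8 and 51.9 CPM in WT and at 15.1, 14.8 and 15.3 CPM in KO (-1.78 ± 0.09, adjusted p = 1.42e-06). Its copy Tmem254a was at 3.65, 4.02 and 4.77 CPM in WT and at 0.877, 1.23 and 0.797 CPM in KO (-2.09 ± 0.24). Both passed against WT library 3 (-1.79 and -2.30) and in the stressed libraries (-2.32 and -2.46). Every 50-base window of the Tmem254b transcripts recurs in another gene, and 73.1% of those of Tmem254a do.

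The bases just upstream of the 2 Tmem254 copies show how alike the loci are. In the RefSeq promoter table (GRCm38.p6, both on the minus strand), 250 bases at chr14:25927673-25927922 and 234 bases at chr14:26207042-26207275 share 1 run of 234 bases, in capitals.
Tmem254a: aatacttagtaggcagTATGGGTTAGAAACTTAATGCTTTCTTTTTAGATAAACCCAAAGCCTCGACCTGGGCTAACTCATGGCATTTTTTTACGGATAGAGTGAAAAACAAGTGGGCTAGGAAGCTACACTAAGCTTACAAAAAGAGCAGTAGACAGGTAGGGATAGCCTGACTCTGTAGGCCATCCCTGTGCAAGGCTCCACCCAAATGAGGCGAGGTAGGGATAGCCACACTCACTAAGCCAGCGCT
Tmem254b: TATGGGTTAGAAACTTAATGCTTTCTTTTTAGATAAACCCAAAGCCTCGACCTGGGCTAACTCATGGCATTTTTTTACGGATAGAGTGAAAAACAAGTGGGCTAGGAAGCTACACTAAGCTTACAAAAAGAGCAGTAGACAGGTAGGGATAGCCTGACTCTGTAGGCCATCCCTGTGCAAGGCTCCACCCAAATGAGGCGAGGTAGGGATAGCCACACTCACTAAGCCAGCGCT

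Plac9a and Plac9b, copies on chromosome 14, were at 2.19 to 3.61 CPM in the WT libraries and at 0.349 to 0.502 CPM in the KO libraries. Their log2 fold changes were -2.67 and -2.70, and -2.40 and -2.45 against WT library 3, and both passed in each comparison and after stress. Of 16 genes tested between 25 and 27 Mb on chromosome 14, 7 passed with 3 WT libraries (43.8%, beside 23.3% of all genes with a position), all lower in KO, and the 4 that passed against WT library 3 were these copies and the Tmem254 pair. This window was set around these copies with earlier results of these data known.

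On chromosome 4, Gm3893, Ccl21b and Fam205a2 fell and passed against WT library 3. Ccl21b, a copy of the chemokine that recruits CCR7-bearing cells, was at 19.0, 18.3 and 30.6 CPM in WT, at 0.548 CPM in KO library 2 and at 0 in KO libraries 1 and 3, where a count of 0 allows up to 0.114 and 0.149 CPM. Its fitted log2 fold change was -6.96 ± 0.61, and it was detected in all 3 WT libraries and hardly at all in KO. Gm3893 was at 48.5, 69.5 and 112 CPM in WT and at 8.85 to 9.12 CPM in KO (-3.10 ± 0.28), and Fam205a2 at 22.5, 29.0 and 38.8 CPM in WT and 12.5 to 16.4 CPM in KO (-1.09 ± 0.18). 4933409K07Rik was at 58.5, 84.3 and 131 CPM in WT and 39.9 to 48.5 CPM in KO (-1.01 ± 0.24). In all 4 WT library 3 was the highest library, and all 4 passed in the stressed libraries with the same sign. Srp54b, a copy of the signal recognition particle GTPase, rose from 35.8, 28.6 and 26.1 CPM to 63.6, 79.4 and 64.7 CPM (1.20 ± 0.15), 1.40 against WT library 3 and 1.08 in the stressed libraries.

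The distal end of chromosome 7, from 139 Mb, held 88 tested genes, a window set with earlier results of these data known. With 3 WT libraries 33 of them passed (37.5%), 16 higher and 17 lower, beside 23.3% of all genes with a position. Of the 88, 13 also had an unadjusted p under 0.05 with the same sign both against WT library 3 and in the stressed libraries, 14.8% of the window beside 1.11% of all genes with a position. Mtg1 and Cars were the 2 that passed against WT library 3. The other 11 were named after their values were seen. Nadsyn1, the last enzyme of NAD synthesis, was at 2.79, 3.86 and 2.38 CPM in WT and 6.44, 5.02 and 6.67 CPM in KO (1.00). Caly, a regulator of endocytosis and dopamine D1 receptor signalling, was at 112, 106 and 118 CPM in WT and 83.2, 83.3 and 86.5 CPM in KO (-0.41). Adam8, a membrane metalloprotease, was at 2.72, 2.51 and 2.48 CPM in WT and 1.14, 0.867 and 0.697 CPM in KO (-1.49). Against WT library 3 the values of Nadsyn1, Caly and Adam8 were 1.34, -0.49 and -1.44. The unstressed WT and KO libraries did not overlap for any of the 13 genes, nor for 36.5% of all genes tested. After stress the groups overlapped for Adam8 and Syce1. Lsp1, Mrgpre, Lrrc27, Cfap46 and Syce1 were higher in KO and Zfp941, R74862 and Tnfrsf23 lower. Syce1 was at 0.034, 0.123 and 0.166 CPM in WT, where a count of 0 allows up to 0.0919 to 0.103 CPM. Tnfrsf23 was at 0.0456 to 0.191 CPM in KO and had non-whole estimated counts in 11 of the 12 libraries. The values of these 2 genes are therefore uncertain.

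Among 13 GABA-A receptor subunits tested, Gabra2 and Gabra4 rose and none fell (15.4%, beside 23.2% of all genes). Gabra4, the α4 subunit of extrasynaptic receptors, was at 118, 112 and 140 CPM in WT and 149, 153 and 156 CPM in KO (0.31, adjusted p = 0.0441). It held against WT library 3 without passing (adjusted p = 0.674), and its stressed value was -0.10. The other 11 subunits lay between -0.37 and 0.46 on the log2 scale. Of 37 glutamate receptor and postsynaptic scaffold genes, 2 rose and 6 fell (21.6%, a share near the 23.2% of all genes), 7 of which held against WT library 3 and none of which passed there. Grin2d, an NMDA receptor subunit of interneurons, was at 20.0, 33.4 and 16.8 CPM in WT and 12.5, 12.3 and 12.6 CPM in KO (-0.91). Grm2, a presynaptic glutamate autoreceptor, was at 117, 128 and 90.8 CPM in WT and 67.3, 52.8 and 61.7 CPM in KO (-0.88). Both held against WT library 3, at -0.43 and -0.58.

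Of 12 HCN and neuronal sodium channel genes, 3 rose and 3 fell (50.0%, beside 23.2% of all genes). All 6 held against WT library 3, as did 91.0% of all genes that passed, and none passed there. Hcn4, a slow pacemaker channel, was at 16.6 and 16.3 CPM in WT libraries 1 and 2, 8.38 CPM in WT library 3 and 4.97 to 6.14 CPM in KO (-1.31). Hcn3 was lower as well (-0.70). Scn4b, a sodium channel β subunit linked to resurgent current, was at 16.6, 27.7 and 40.3 CPM in WT and 55.6, 63.4 and 69.3 CPM in KO (1.15), and 0.64 against WT library 3. For Hcn4 and Scn4b, WT library 3 lay between WT libraries 1 and 2 and the KO libraries. Of 34 potassium channel genes, 5 rose and 3 fell (23.5%, a share near the 23.2% of all genes), 7 of which held against WT library 3. Kcnc1 (-0.52), a channel of fast-spiking neurons, fell, and Kcnmb4 (0.70) and Kcnip3 (0.56), subunits of BK and A-type channels, rose. None of the 34 passed against WT library 3 or in the stressed libraries.

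Of 30 presynaptic release genes, 5 rose, 4 of which held against WT library 3, and 1 fell and did not hold. In all 20.0% passed, beside 23.2% of all genes. Snap25, a SNARE of vesicle fusion, rose by 0.41 and Syt4, a synaptotagmin, by 0.68, and both held against WT library 3 at 0.30 and 0.28 without passing. Of 12 serotonin receptors, Htr5b fell (-1.33) and the other 11 did not pass (8.33% passed, beside 23.2% of all genes). Of 38 stress neuropeptide and receptor genes, 4 rose and 6 fell (26.3%, beside 23.2% of all genes), 6 of which held against WT library 3. Oprk1, the κ opioid receptor, was at 2.20, 3.62 and 3.78 CPM in WT and 7.17, 6.98 and 11.5 CPM in KO (1.41), and 1.17 against WT library 3. Sstr2, a somatostatin receptor, was higher by 1.18, and by 0.40 against WT library 3, whose 13.1 CPM lay above the 4.06 and 5.73 CPM of WT libraries 1 and 2. None of these receptor and peptide genes passed against WT library 3 or in the stressed libraries.

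Cholesterol synthesis genes were higher in unstressed KO. Of 25 tested, 17 (68.0%) rose and none fell, beside the 11.2% of all genes that were higher, with a median log2 fold change of 0.40 beside 0.00 over all genes. Fdps, which makes farnesyl pyrophosphate, was at 41.0, 38.6 and 43.5 CPM in WT and 65.8, 66.8 and 82.2 CPM in KO (0.80 ± 0.10, adjusted p = 0.00269). Hmgcs1, which makes HMG-CoA, was at 248, 255 and 312 CPM in WT and 415, 438 and 494 CPM in KO (0.73 ± 0.11). The groups did not overlap for either gene, and WT library 3 was the highest of the WT libraries. Idi1 (0.72) and Acat2 (0.59), other enzymes of the pathway, rose with the same separation. All 17 held against WT library 3, where the median of the 25 was 0.32, and none passed there (adjusted p = 0.139 for Fdps, 0.205 for Hmgcs1). Over all genes, 1655 of the 1697 that rose held against WT library 3 as well, so holding does not set this list apart. In the stressed libraries the median of the 25 was 0.06, or 0.03 without stressed KO library 1, and none passed. The mean level of the list was 5.28, 5.29 and 5.42 log2 CPM in WT and 5.70, 5.78 and 5.83 log2 CPM in KO, and 5.60 to 5.78 log2 CPM in stressed WT.

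Subunits of oxidative phosphorylation rose for 38 of 75 genes tested (50.7%) and fell for none, beside the 11.2% of all genes that were higher. Their median was 0.36, and 0.41 against WT library 3, and all 38 held there while none passed. Ndufb9, a complex I subunit, was at 105, 86.9 and 94.8 CPM in WT and 146, 203 and 126 CPM in KO (0.73). Uqcrc2, a complex III subunit, was at 201, 184 and 202 CPM in WT and 238, 256 and 246 CPM in KO (0.34). Of 74 cytosolic ribosomal protein genes, 18 (24.3%) rose and none fell, with a median of 0.34, and 0.43 against WT library 3. All 18 held and none passed. Over all genes, 1655 of the 1697 that rose held against WT library 3 as well, so holding does not set these 2 lists apart. Rps21 was at 94.2, 76.1 and 80.2 CPM in WT and 132, 254 and 111 CPM in KO (0.99). KO library 2 was the highest library of both lists, at 6.93 log2 CPM for the oxidative phosphorylation list beside 6.58 and 6.49 in the other 2 KO libraries, and at 7.55 log2 CPM for the ribosomal list beside 7.12 and 6.85. WT library 1 was at 7.04 log2 CPM for the ribosomal list, above KO library 3. Without KO library 2, the number of genes that passed over all genes went from 3529 to 988. The medians of these 2 lists were not taken without that library. In the stressed libraries the medians were -0.09 and 0.01, or -0.04 and 0.02 without stressed KO library 1, and no gene of either list passed.

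Of the immediate early, clock and glucocorticoid lists, 20.6%, 18.2% and 26.1% of the genes tested passed, shares near the 23.2% of all genes. Of 34 immediate early genes, 2 rose and 5 fell, and all 7 held against WT library 3 without passing. Sik1, a salt-inducible kinase, was at 19.1 and 19.7 CPM in WT libraries 1 and 2, 10.7 CPM in WT library 3 and 6.80 to 8.58 CPM in KO (-1.14). Per1, which belongs to the immediate early, clock and glucocorticoid lists, was at 67.9, 76.5 and 71.7 CPM in WT and 59.6, 51.8 and 51.2 CPM in KO (-0.41), with the same value against WT library 3. Of 22 clock genes, Per1, Per3 (-0.36) and Cry1 (-0.55), repressors of the clock, fell and Nr1d2 (0.23) rose, and all 4 held against WT library 3. Of 23 glucocorticoid receptor genes and targets, 2 rose and 4 fell. Fkbp5, a co-chaperone induced by glucocorticoids, was at 40.5, 36.2 and 36.2 CPM in WT and 27.3, 28.2 and 29.4 CPM in KO (-0.41), and -0.36 against WT library 3. Plin4, a lipid droplet coat protein, was at 3.23, 3.71 and 2.85 CPM in WT and 1.11, 1.37 and 0.648 CPM in KO (-1.64), and -1.44 against WT library 3. Nr3c1, the glucocorticoid receptor, was higher by 0.45, and by 0.15 against WT library 3. None of these genes passed against WT library 3 (adjusted p = 0.201 for Plin4).

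Of 27 genes of the integrated stress response and ER chaperones, 6 fell and 2 rose (29.6%, beside 23.2% of all genes), and all 8 held against WT library 3. Atf4, the transcription factor at the centre of this response, was named after its values were seen: it was at 118, 113 and 108 CPM in WT and at 94.7, 90.6 and 96.1 CPM in KO (-0.27 ± 0.07, adjusted p = 0.0261). It held against WT library 3 at -0.21 without passing (adjusted p = 0.392). After stress it was at 132 to 142 CPM in WT and at 89.2 to 108 CPM in KO, and it passed at -0.49 (adjusted p = 0.0179), but not without stressed KO library 1 (-0.43, adjusted p = 0.0729). Sesn2, a leucine sensor induced by ATF4, was at 13.9, 14.5 and 13.2 CPM in WT and 8.54, 8.03 and 9.66 CPM in KO (-0.66 ± 0.10). Slc7a5, the large neutral amino acid transporter, was at 69.4, 84.7 and 84.0 CPM in WT and 55.6, 54.0 and 58.6 CPM in KO (-0.50). Atf5 (-1.34), a transcription factor of the response, and Herpud1 (-0.30), a component of ER-associated degradation, were lower as well. Against WT library 3 the values were -0.59, -0.58, -0.73 and -0.25, and none passed (adjusted p = 0.200, 0.197, 0.205 and 0.319). After stress these 4 were at -0.33, -0.30, -0.36 and -0.28 without passing.

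Cell type lists differed in how far their changes held. Of 26 meningeal and fibroblast markers, 18 fell (69.2%, beside 12.1% of all genes lower) and none rose, with a median of -1.66, and 17 of the 18 held against WT library 3, where the median was -0.55 and none passed. The median was 0.36 in the stressed libraries, or 0.64 without stressed KO library 1. Ogn, a matrix proteoglycan, was at 22.6, 24.6 and 6.16 CPM in WT and at 2.78, 3.56 and 0.946 CPM in KO (-2.86). All 11 olfactory bulb markers fell, with a median of -3.31, and 5 held against WT library 3, where the median was -0.67 and none passed. Th, the dopamine synthesis enzyme of bulb periglomerular cells, was at 94.2, 103 and 13.6 CPM in WT and at 7.97, 4.15 and 3.29 CPM in KO (-3.75).

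Of 31 interneuron markers, 5 rose and 13 fell (58.1%, beside 23.2% of all genes), 11 of which held against WT library 3. Reln, the extracellular glycoprotein reelin, was at 230 and 288 CPM in WT libraries 1 and 2, 115 CPM in WT library 3 and 80.6 to 88.2 CPM in KO (-1.33). Pvalb, the calcium buffer of fast-spiking interneurons, was at 8.15, 9.41 and 14.3 CPM in WT and 20.4, 28.6 and 20.3 CPM in KO (1.12), and 0.69 against WT library 3 (adjusted p = 0.250). For both, WT library 3 lay between the other WT libraries and the KO libraries. In the stressed libraries Reln was at -0.09 and Pvalb at -0.52, the opposite sign for Pvalb, and neither passed. Of 30 excitatory layer markers, 5 rose and 4 fell (30.0%, beside 23.2% of all genes). All 9 held against WT library 3, and Otof alone passed there. Neurod6 (0.92), a transcription factor of pyramidal neurons, rose and Cux1 (-0.70), an upper-layer factor, fell. Their stressed values were -0.02 and -0.09, and neither passed. The stressed medians of the interneuron and excitatory layer lists were 0.02 and -0.02, or -0.05 and -0.17 without stressed KO library 1. With the olfactory bulb level as a covariate, the median log2 fold change of the interneuron list went from -0.38 to -0.08 and that of the excitatory layer list from 0.25 to -0.03.

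Among glia, 5 of 20 microglia markers rose and 1 fell (30.0%, beside 23.2% of all genes). Aif1, the microglial actin-binding protein IBA1, was at 2.62, 2.02 and 2.85 CPM in WT and 5.03, 6.84 and 4.28 CPM in KO (1.11), and 0.92 against WT library 3 (adjusted p = 0.210). All 5 rises held against WT library 3 and the fall of Sall1 (-1.61) did not. Of 12 oligodendrocyte precursor genes, 3 fell, 2 of which held, and none rose (25.0%, a share near the 23.2% of all genes). Gpr17, a receptor of differentiating precursors, was at 45.7, 46.7 and 51.3 CPM in WT and 31.9, 31.8 and 30.7 CPM in KO (-0.61 ± 0.10, adjusted p = 0.00665). It held against WT library 3 at -0.71 (adjusted p = 0.119), and it passed in the stressed libraries at -0.77 (adjusted p = 0.00376; -0.80 without stressed KO library 1, adjusted p = 0.0202) and with the olfactory bulb level as a covariate. Of 26 myelin genes, 3 fell and none rose (11.5%), and all 3 held. Slc1a2, the main astrocyte glutamate transporter, rose by 0.58 among 20 astrocyte markers, of which 3 fell (20.0% passed). Slc1a2 held against WT library 3, and 1 of the 3 falls did. None of 5 blood cell genes passed, and 1 of 6 choroid plexus markers tested (16.7%) and 1 of 19 striatal markers tested (5.26%) fell. Of 30 interferon and antigen presentation genes, 2 rose and 2 fell (13.3%), and 3 of these held against WT library 3. Both endothelial or mural markers that fell, of 24 (8.33%), and 1 of 3 thalamic markers that fell, of 9 (33.3%), held as well. Each of these shares stands beside the 23.2% of all genes that passed.

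**Figure D5:**
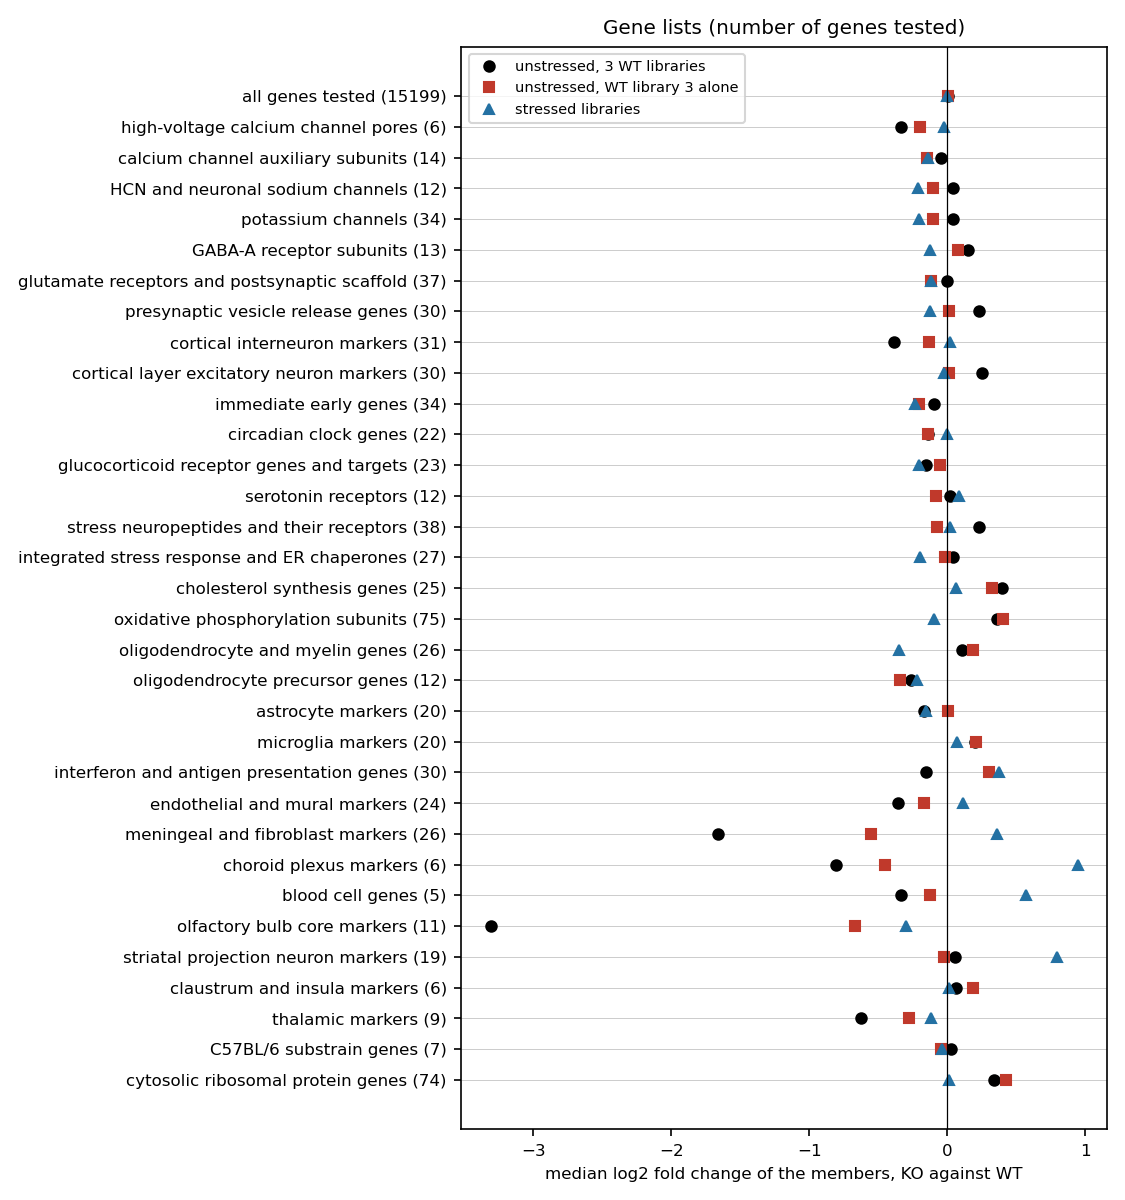
Median log2 fold change of KO against WT (horizontal axis) for each gene list (vertical axis, number of genes tested in brackets), with 3 WT libraries (black circles), against WT library 3 alone (red squares) and in the stressed libraries (blue triangles). The olfactory bulb median goes from -3.31 to -0.67 between the first and the second, while the cholesterol synthesis median goes from 0.40 to 0.32.

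The largest falls by the naming rule were Ccl21b, S100a5, Omp, Tbx21, Ltbp2, Th, Eomes, Chrnb4, Prg4, Aqp1, Svep1 and 1 unnamed gene model. The rule took only genes whose WT and KO libraries did not overlap, so falls and rises alike held against WT library 3 by selection. All 12 held against WT library 3, and Ccl21b alone passed there. Omp, the olfactory marker protein, was at 18.6, 89.6 and 5.93 CPM in WT and at 1.68, 0.274 and 0.0996 CPM in KO (-5.68). Tbx21 and Eomes, T-box factors of mitral and tufted cells, fell by 4.23 and 3.62 on the log2 scale, and by 1.20 and 1.04 against WT library 3. The largest rises were Krt80, Pappa2, Chrna5, Sebox, Wfdc18, Lsp1, Nxph3, Adamts13, Cabp7, Wnt2, Trpv6 and Drd5. All 12 held against WT library 3 and none passed there. Drd5, the dopamine D5 receptor, was at 1.82, 2.15 and 2.68 CPM in WT and 5.53, 5.84 and 8.32 CPM in KO (1.56), and 1.28 against WT library 3. Chrna5, a nicotinic receptor subunit, was at 1.07, 1.44 and 3.08 CPM in WT and 5.07, 6.43 and 10.7 CPM in KO (1.98), and 1.26 against WT library 3. Nxph3, a neurexin ligand of deep-layer neurons, was at 6.33 and 11.7 CPM in WT libraries 1 and 2, 36.4 CPM in WT library 3 and 46.0 to 73.7 CPM in KO (1.70).

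In the stressed libraries 38 genes (0.25%) differed between KO and WT, 13 higher (0.0855%) and 25 lower (0.164%). Of these, 26 had also passed in the unstressed libraries, all with the same sign, which is 68.4% of the stressed genes and 0.737% of the unstressed ones. Of the 3529 unstressed genes, 50.9% kept their sign in the stressed libraries, beside 48.5% of all genes tested. Of the 18 genes that passed against WT library 3, 15 also passed in the stressed libraries, and the exceptions were Otof, Prrt1 and Ehd1. Without stressed KO library 1, 25 genes passed after stress. Of these, 18 had passed in the unstressed libraries, all with the same sign, and 14 against WT library 3. Cars was the gene of the 15 that no longer passed (-0.49, adjusted p = 0.0519). The share of the unstressed genes that kept their sign was then 53.5%, beside 50.5% of all genes. A test of whether the KO against WT difference changed with stress found 0 genes at an adjusted p under 0.05 by edgeR, and 4330 (28.5%) at an unadjusted p under 0.05.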

How the data were processed

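RNA-seq was made from medial prefrontal cortex of KO and WT mice, with a directional library kit per the labels' protocols. The authors deposited gene-level estimated counts; Trim Galore 0.6.6, STAR 2.7.9a, RSEM 1.3.1, DESeq2 1.36.0 and mm10 are listed per the submitters' processing notes. The estimated counts of all 12 libraries were rounded and fitted with edgeR 4.0.16 (R 4.3.3; limma 3.58.1): TMM scaling, filterByExpr (minimum count 10, minimum total 15; 15199 of 24411 genes kept), 4 group means, 8 residual degrees of freedom, a quasi-likelihood F test, two-sided, with Benjamini-Hochberg adjustment over all genes tested. A standard error is the log2 fold change divided by the square root of F. CPM use TMM-scaled totals, and log2 CPM a prior count of 2. A gene list's level is the mean log2 CPM of its tested members. Gene positions are from GENCODE M21 (GRCm38), and 96.2% of the genes tested had one.

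Named genes were Cacna1g, the 12 largest rises and 12 largest falls that passed with groups that do not overlap, the 12 with the smallest p among those past the threshold against WT library 3, the 12 with the smallest p in both conditions, and the list members with the smallest p. Srp54b, Prrt1, Ehd1, Luc7l3 and Atf4 fall outside this rule and were named after their values were seen. The members, lists and rule were chosen with earlier results of these data known. Between replicate libraries chi-square per degree of freedom was 4.93 to 71.2, so none was counted as a duplicate. The fit was tested on simulated data. Alternatives were DESeq2 1.42.0, its size factors, no filter, only the groups compared, a replicate block, each library left out, each single WT library, and the olfactory bulb level as a covariate. An alternative chosen after seeing the data left out WT libraries 1 and 2 and stressed KO library 1.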

Additional observations from a re-analysis of the deposited data

How the results depend on the processing

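Deviations from the group mean in same-numbered unstressed WT and KO libraries correlated at r = 0.26, 0.05 and 0.36. For differently numbered libraries r was -0.32 to 0.24. With 3 libraries per group, these values cannot settle whether the numbers pair the samples. The main fit did not pair them. The number of genes that passed in unstressed KO against WT was 3547 with DESeq2 size factors, 3253 with no filter, 4163 by DESeq2 and 3155 with a replicate block. It fell to 18 with only the 2 groups compared, 18 with WT library 3 as the only unstressed WT library (3354 with WT library 1 and 3406 with WT library 2 in its place), 14 with the olfactory bulb level as a covariate, and 28 without WT libraries 1 and 2 and stressed KO library 1, an alternative chosen after seeing the data. The genes that passed with only the 2 groups compared were 7 higher and 11 lower, a different set from that against WT library 3. Leaving out 1 library gave 234 to 5729. In the stressed libraries 38 genes passed, 290 by DESeq2, and 19 to 26 with 1 library left out. The Cacna1g log2 fold change lay between -1.24 and -1.07 over its alternatives and always passed. Among the other genes named, the sign reversed with the olfactory bulb level as a covariate for Cdhr1 (0.42), Eomes (0.42) and Aqp1 (0.17). Cdhr1 and Eomes are members of the list behind that covariate, so their values in that fit are partly set by its construction. Against WT library 3 the sign reversed for Cyfip2 (-0.042, with or without stressed KO library 1). The cause of these shifts was not tested. In the unstressed libraries a count of 0 allows up to 0.0919 to 0.149 CPM.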
